A study of Mus musculus with 4 samples.

Results

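Wnt signalling and planar cell polarity were examined through 60 genes, chosen by gene name, that encode Wnt ligands, their receptors, secreted inhibitors, receptor turnover proteins, intracellular components, transcription factors and core planar polarity proteins. All 60 were present among the 27574 named genes on the array, through 77 probes, and 53 of them gave a signal strong enough to test. Wnt proteins are secreted ligands that bind Frizzled receptors. With the Lrp5 and Lrp6 co-receptors they stabilise beta-catenin, which then acts with the transcription factors of the Tcf and Lef family, and secreted proteins of the Dkk, Sfrp and Wif families hold this in check. Planar polarity proteins such as Vangl2, Celsr1, Ptk7, Fzd3 and Fzd6 align cells within an epithelium, and in the cochlea they are known for orienting the hair bundles.

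The basal part of E18.5 organs of Corti, the sensory epithelium of the cochlea, was profiled on 4 dual-colour arrays of 1 slide. Each array carried 1 Sox2-Tbx2LOF pool, of the genotype Sox2(creERT2);Tbx2(fl/fl), beside 1 control pool, labelled Tbx2(fl/n.d.) and free of cre according to the methods. All embryos were NMRI, and all dams had received 4 mg tamoxifen by mouth at E16.5, with progesterone in addition according to the methods. The controls thus shared the drugs but not the creERT2 allele, whose own effect cannot be told apart from that of the Tbx2 deletion. The embryos of the cross also carried the R26 mTmG reporter. In the mutants, recombination was limited to cells with Sox2 promoter activity, so each mutant pool mixed recombined with unrecombined cells. Arrays 1 and 2 held female and arrays 3 and 4 male pools. The mutant RNA was in the green channel on arrays 1 and 3 and in the red channel on arrays 2 and 4. The pools were independent and sorted by sex, each from many organs, so n is 4 pools per genotype.

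Median channel signals lay between 346 and 412 in the mutant and between 315 and 411 in the control channels, no spot was saturated, and 3.23% to 3.56% of spots per array were set aside by the scanner's outlier flags. The log2 ratio of Sox2-Tbx2LOF over control was tested with limma, with Benjamini-Hochberg adjustment over all tested probes, and calling a gene changed required both a ratio of 1.5-fold or more and an adjusted p under 0.05. By that rule 57 of 20043 tested genes (0.284%) were called. Tbx2 itself had a log2 ratio of -0.15 (SE 0.05, adjusted p = 0.31), lower on 4 of 4 arrays, but whether its probe lies in the deleted part is not given in the sources used here. Sox2, whose promoter drives the cre, was at 0.23 (SE 0.05, adjusted p = 0.087), higher on 4 of 4 arrays. Of 5 inner hair cell markers, 4 had an adjusted p under 0.05 for a lower level, against 0.634% of all genes. Among them were Fgf8 with a log2 ratio of -1.57 and Slc17a8, the vesicular glutamate transporter of inner hair cells, with -0.66. The remaining marker, Calb2, was at 0.01, above 0 on 2 of 4 arrays. The marker lists were chosen with earlier results of these data known, so this count is a description and not independent support. In pooled tissue, fewer cells of a type and less RNA per cell cannot be told apart.

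None of the 53 tested Wnt and planar polarity genes was called changed, and the 3 with an adjusted p under 0.05 were all from the group listed as secreted inhibitors. Dkk3 and Sfrp5 were higher in Sox2-Tbx2LOF, beside 0.524% of all genes with an adjusted p under 0.05 and a higher level, and Dkk1 was lower, beside 0.634% of all genes in that direction. The log2 ratios of the 53 genes ran from -0.46 to 0.42 with a median of 0.02, against a median of 0.00 over all genes. The median absolute log2 ratio was 0.043, against 0.034 over all genes. For 41 genes (77.4%) it was under 0.10.

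The median SE of the log2 ratio was 0.055 over the 53 genes and 0.051 over all genes. The 95% confidence interval stayed within 1.5-fold either way for 53 of 53 genes, as it did for 99.3% of all genes, and within 1.2-fold for 44 of 53 (83.0%), against 91.9% of all genes. Dkk3 came closest to the wider limit, with an interval of the log2 ratio from 0.26 to 0.58, followed by Sfrp5, from 0.24 to 0.58. The background correction adds an offset that pulls the ratios of dim probes towards 0, so for dim genes these intervals hold only under that offset. The dim probe of Dkk1 gave -0.46 here and -0.58 with an offset of 16. With the scanner software's own ratio, which also differs in background correction and normalisation, it gave -0.75, past 1.5-fold.

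**Figure D1:**
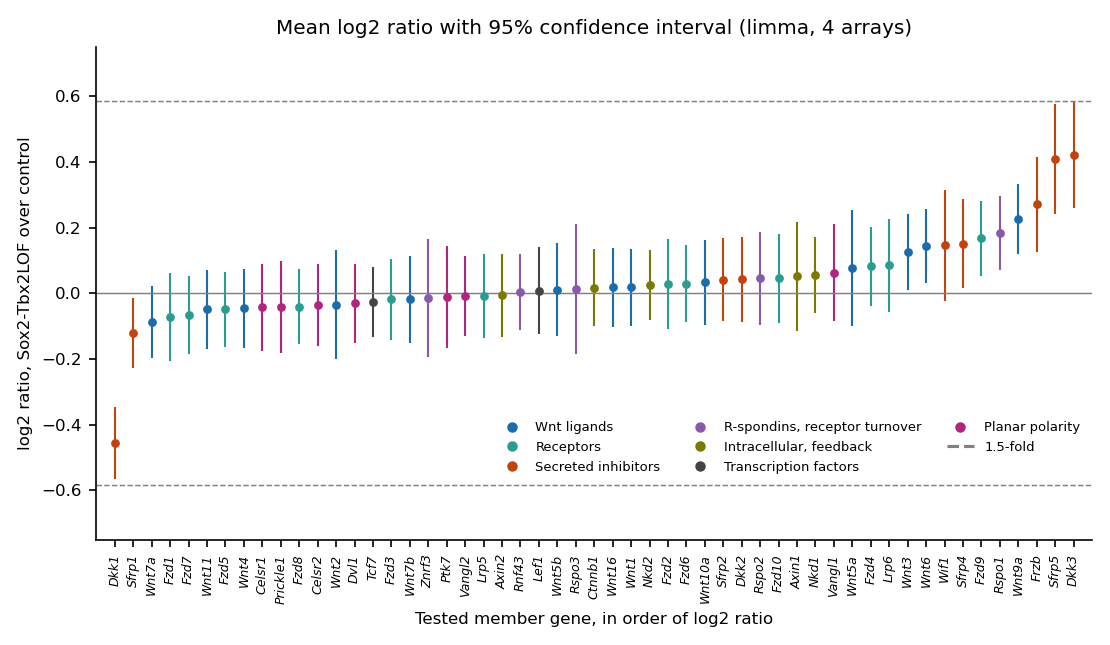
Mean log2 ratio of Sox2-Tbx2LOF over control (vertical axis) with its 95% confidence interval from limma over 4 arrays, for the 53 tested genes in order of the ratio and coloured by role; dashed lines mark 1.5-fold. The intervals of all 53 genes lie between the dashed lines, with Dkk1 at -0.46 on the left and Dkk3 at 0.42 and Sfrp5 at 0.41 on the right. For dim genes this holds only under the background offset used, which pulls their ratios towards 0.

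At an unadjusted p under 0.05, 9 of 53 genes (17.0%) were higher in Sox2-Tbx2LOF, against 3.87% of all genes, and 2 of 53 (3.77%) were lower, against 4.01% of all genes. The 9 were Dkk3, Sfrp5, Frzb, Wnt9a, Rspo1, Fzd9, Sfrp4, Wnt6 and Wnt3, and the 2 were Dkk1 and Sfrp1. The ratio had the same sign on all 4 arrays for 9 genes (17.0%), 5 of them higher and 4 lower, against 9.33% of all genes. The levels of the mutant and the control pools did not overlap for 3 genes, Dkk1, Dkk3 and Frzb (5.66%), against 2.82% of all genes.

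The secreted inhibitors held 6 of the 11 genes at an unadjusted p under 0.05. All 9 of them were tested, 7 with a ratio above 0 and 2 below, with a median log2 ratio of 0.15. Outside this group, 5 of 44 genes (11.4%) had an unadjusted p under 0.05, against 7.88% of all genes in either direction. The probes that measured the 4 inhibitors with the smallest p-values are shown because each result rests on a single probe per gene; the first 30 of 60 bases are given 5′ to 3′, in the orientation of the array file.
Dkk1: tactgtgttgtaaatcctcagtgtggcact
Dkk3: gcctgtaaatcgcatctgaagataccacag
Sfrp5: attattgctactgctgtggggccgctgatt
Frzb: gtgcaccagggtgttatttaacagaggtat
In the mm9 build the full probes lie on the minus strand, for Dkk1 at chr19:30621424-30621483, for Dkk3 at chr7:119259556-119259615, for Sfrp5 at chr19:42272509-42272568 and for Frzb at chr2:80252582-80252641. Whether each stretch is coding or untranslated was not determined, as no annotation of that build was used here.

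Dkk1 encodes a secreted antagonist that binds Lrp5 and Lrp6 and keeps them from Wnt. Its channel level, log2 of the normalised signal, was 7.01, 7.16, 6.92 and 7.21 in the Sox2-Tbx2LOF pools of arrays 1 to 4 and 7.61, 7.45, 7.63 and 7.44 in the control pools. Every mutant pool was below every control pool, at 7.08 ± 0.13 against 7.53 ± 0.10 (mean ± SD, n = 4 pools each). The log2 ratios were -0.59, -0.29, -0.70 and -0.23. The limma estimate was -0.46 (SE 0.05, adjusted p = 0.003), a 1.37-fold difference with a 95% interval of the log2 ratio from -0.57 to -0.34. The probe is dim, and the background offset of 50 pulls such ratios towards 0; with an offset of 16 the value was -0.58 (adjusted p = 7.29e-04), and with the scanner software's own ratio, which also differs in background correction and normalisation, it was -0.75 (adjusted p = 0.004), past 1.5-fold. The larger ratios, -0.59 and -0.70, came from the arrays with the mutant RNA in green, and the smaller from those with it in red.

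Dkk3 encodes a divergent member of the Dickkopf family that does not share the receptor binding of Dkk1. Its level was 15.72, 15.69, 15.51 and 15.76 in the Sox2-Tbx2LOF pools and 15.22, 15.27, 15.38 and 15.12 in the control pools. The groups did not overlap, with 15.67 ± 0.11 against 15.25 ± 0.11. The log2 ratios were 0.50, 0.41, 0.13 and 0.64, and the estimate was 0.42 (SE 0.07, adjusted p = 0.033), a 1.34-fold difference. Without array 1 the adjusted p was 0.098, at a log2 ratio of 0.33.

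Sfrp5, a secreted Frizzled-related protein that binds Wnt ligands, had levels of 9.90, 9.57, 9.76 and 9.59 in the Sox2-Tbx2LOF pools and of 9.12, 9.22, 9.20 and 9.65 in the control pools. The control pool of array 4 was above 2 of the 4 mutant pools, so the groups overlapped, and the ratio was above 0 on 3 of 4 arrays. The log2 ratios were 0.78, 0.36, 0.56 and -0.06, with an estimate of 0.41 (SE 0.07, adjusted p = 0.045), a 1.33-fold difference. Without array 1 the adjusted p was 0.17 and without array 3 it was 0.060, whereas without array 4 it was 4.60e-04 at a log2 ratio of 0.51. All 3 genes lost the adjusted p under 0.05 in a fit with no dye term, at 0.13 for Dkk1, 0.15 for Dkk3 and 0.50 for Sfrp5.

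**Figure D2:**
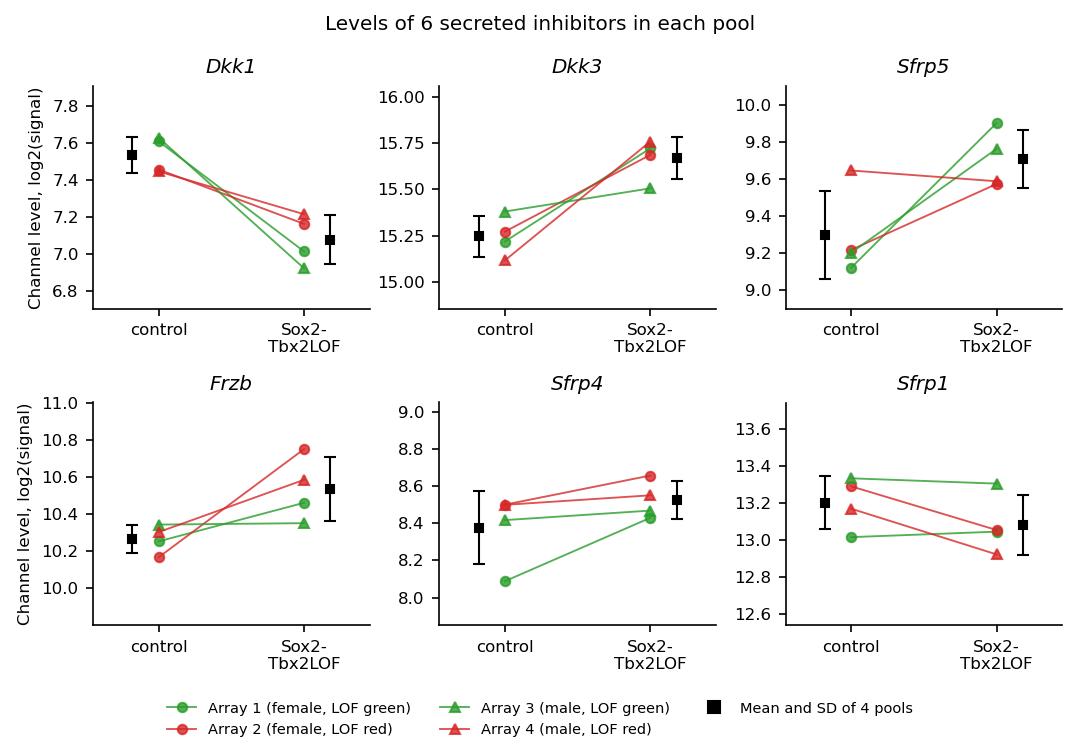
Channel level, log2 of the normalised signal (vertical axis, spanning 1.2 in each panel), of 6 secreted inhibitors in the control and Sox2-Tbx2LOF pools; lines join the pools of 1 array, colours show the channel of the mutant RNA and shapes the sex, and black squares with bars are the mean and SD of 4 pools. Dkk1 is lower and Dkk3 higher in every mutant pool than in every control pool, while for Sfrp5 the control pool of array 4, at 9.65, lies among the mutant pools.

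Frzb, another Wnt-binding Frizzled-related protein, was measured at 10.46, 10.75, 10.35 and 10.58 in the mutant and 10.25, 10.17, 10.34 and 10.30 in the control pools. The groups did not overlap, but the gap on array 3 was only 0.01, and the estimate of 0.27 (SE 0.06) had an adjusted p of 0.13 in limma. With 1 array left out the estimate ran from 0.20 without array 2 (adjusted p = 0.37) to 0.35 without array 4 (adjusted p = 0.017). Sfrp4 had a log2 ratio of 0.15 (SE 0.06, adjusted p = 0.60), above 0 on 4 of 4 arrays but 0.08 without array 1, and Sfrp1 one of -0.12 (SE 0.05, adjusted p = 0.57), below 0 on 3 of 4. Sfrp2 and Dkk2 lay at 0.04 each.

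Wif1, which binds Wnt proteins outside the cell, varied most among the inhibitors by dye. Its log2 ratios were 0.00, 0.62, -0.24 and 0.20, with an estimate of 0.15 (SE 0.07, adjusted p = 0.86). Both red-labelled mutant pools were above their controls and neither green-labelled one was.

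Of the 19 Wnt ligand genes, 13 were tested, 8 with a ratio above 0 and 5 below. Wnt9a had the largest value, with log2 ratios of 0.10, 0.35, 0.13 and 0.33 and an estimate of 0.23 (SE 0.05, adjusted p = 0.079), a 1.17-fold difference. It was higher in the mutant pool of each array, but across arrays the groups overlapped, at 12.16 to 12.32 in the mutant and 11.89 to 12.20 in the control pools. Wnt6 had a log2 ratio of 0.14 (SE 0.05, adjusted p = 0.44) and Wnt3 of 0.13 (SE 0.05, adjusted p = 0.63), each above 0 on 3 of 4 arrays. The lowest value was that of Wnt7a, at -0.09 (SE 0.05, adjusted p = 0.94), below 0 on 4 of 4 arrays with ratios of -0.12, -0.12, -0.00 and -0.10.

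Wnt5a, a ligand known from planar polarity work in the cochlea, showed the widest spread among the ligands. Its log2 ratios were 0.29, -0.48, 0.52 and -0.02, so that both arrays with the mutant RNA in green were above 0 and both with it in red were below. The estimate was 0.08 (SE 0.08, 95% interval -0.10 to 0.25, adjusted p = 1.00).

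The remaining 6 ligands could not be tested. The probes of Wnt2b, Wnt3a, Wnt8a, Wnt8b and Wnt10b were not well above background on any array in either group. Wnt9b was well above background on 2 mutant arrays and on no control array, at mean log2 levels of 6.43 and 6.33, and the floor of measurable signal, at 6.43, left no room for a fold.

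All 12 receptor genes were tested, with 6 ratios above and 6 below 0. Fzd9, a Frizzled receptor, was above 0 on 4 of 4 arrays, with log2 ratios of 0.17, 0.08, 0.33 and 0.09 and an estimate of 0.17 (SE 0.05, adjusted p = 0.29). The lowest estimate was that of Fzd1, at -0.07 (SE 0.06, adjusted p = 1.00). Fzd3 and Fzd6, which act together in hair bundle orientation, had estimates of -0.02 (95% interval -0.14 to 0.11) and 0.03 (-0.09 to 0.15). The co-receptor genes Lrp5 and Lrp6 lay at -0.01 and 0.08.

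Among the genes that set receptor number at the cell surface, Rspo1 had the largest value. R-spondins raise Wnt responses by drawing the ubiquitin ligases Znrf3 and Rnf43 away from Frizzled receptors. The log2 ratios of Rspo1 were 0.50, -0.07, 0.35 and -0.05, with an estimate of 0.18 (SE 0.05, adjusted p = 0.21). Both values above 0 came from arrays with the mutant RNA in green, and its dye coefficient, -0.24, was larger than the genotype coefficient. Rspo2, Rspo3, Rnf43 and Znrf3 lay between -0.01 and 0.05.

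The 5 intracellular and feedback genes and the 2 transcription factor genes held none with an unadjusted p under 0.05. Axin2, a general transcriptional target of beta-catenin and a part of its destruction complex, had log2 ratios of -0.08, -0.11, 0.04 and 0.12. Its estimate was -0.01, with a 95% interval from -0.13 to 0.12. Nkd1, which binds Dishevelled, stood highest in the group at 0.05 (SE 0.05). Lef1 had an estimate of 0.01 (95% interval -0.12 to 0.14) and Tcf7 of -0.03 (-0.13 to 0.08), both transcription factors that bind beta-catenin.

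Among the 12 genes with at least 2 tested probes, the probes of 11 differed by less than 0.10 in log2 ratio. The exception was Nkd2, the paralogue of Nkd1, named here after its values were seen, whose 2 probes are shown by their first 30 bases.
Nkd2, brighter probe: tccaacaccctcacacagacatacatgtag
Nkd2, dimmer probe: tgagtttatgaaagttgggcatgatgcctt
They lie on the minus strand of mm9 at chr13:73956776-73956835 and chr13:73957581-73957640. The brighter probe gave log2 ratios of -0.09, 0.11, -0.05 and 0.14, with an estimate of 0.03 (SE 0.05, adjusted p = 1.00). The dimmer one gave -0.20, -0.31, -0.17 and -0.14, below 0 on 4 of 4 arrays, with an estimate of -0.21 (SE 0.05, adjusted p = 0.15). The difference between the probes, 0.23, was the largest in the set.

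The planar polarity genes lay close to 0, with a median absolute log2 ratio of 0.035, near the 0.034 over all genes. Of 8, 7 were tested, 6 with a ratio below 0 and 1 above, and all 7 estimates lay between -0.04 and 0.06. Vangl2, the transmembrane core protein mutated in Looptail mice, was measured at -0.00, -0.15, 0.05 and 0.06, with an estimate of -0.01 (SE 0.05, 95% interval -0.13 to 0.11) and a range of only 0.03 between its 3 probes. Vangl1 had the highest estimate, 0.06 (SE 0.06), and Celsr1, an atypical cadherin of the core complex, the lowest, -0.04 (SE 0.06, 95% interval -0.18 to 0.09). Ptk7, a receptor-like pseudokinase, had an estimate of -0.01 (SE 0.07, 95% interval -0.17 to 0.14). Prickle2 was well above background on 2 mutant arrays and 1 control array and was not tested.

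**Figure D3:**
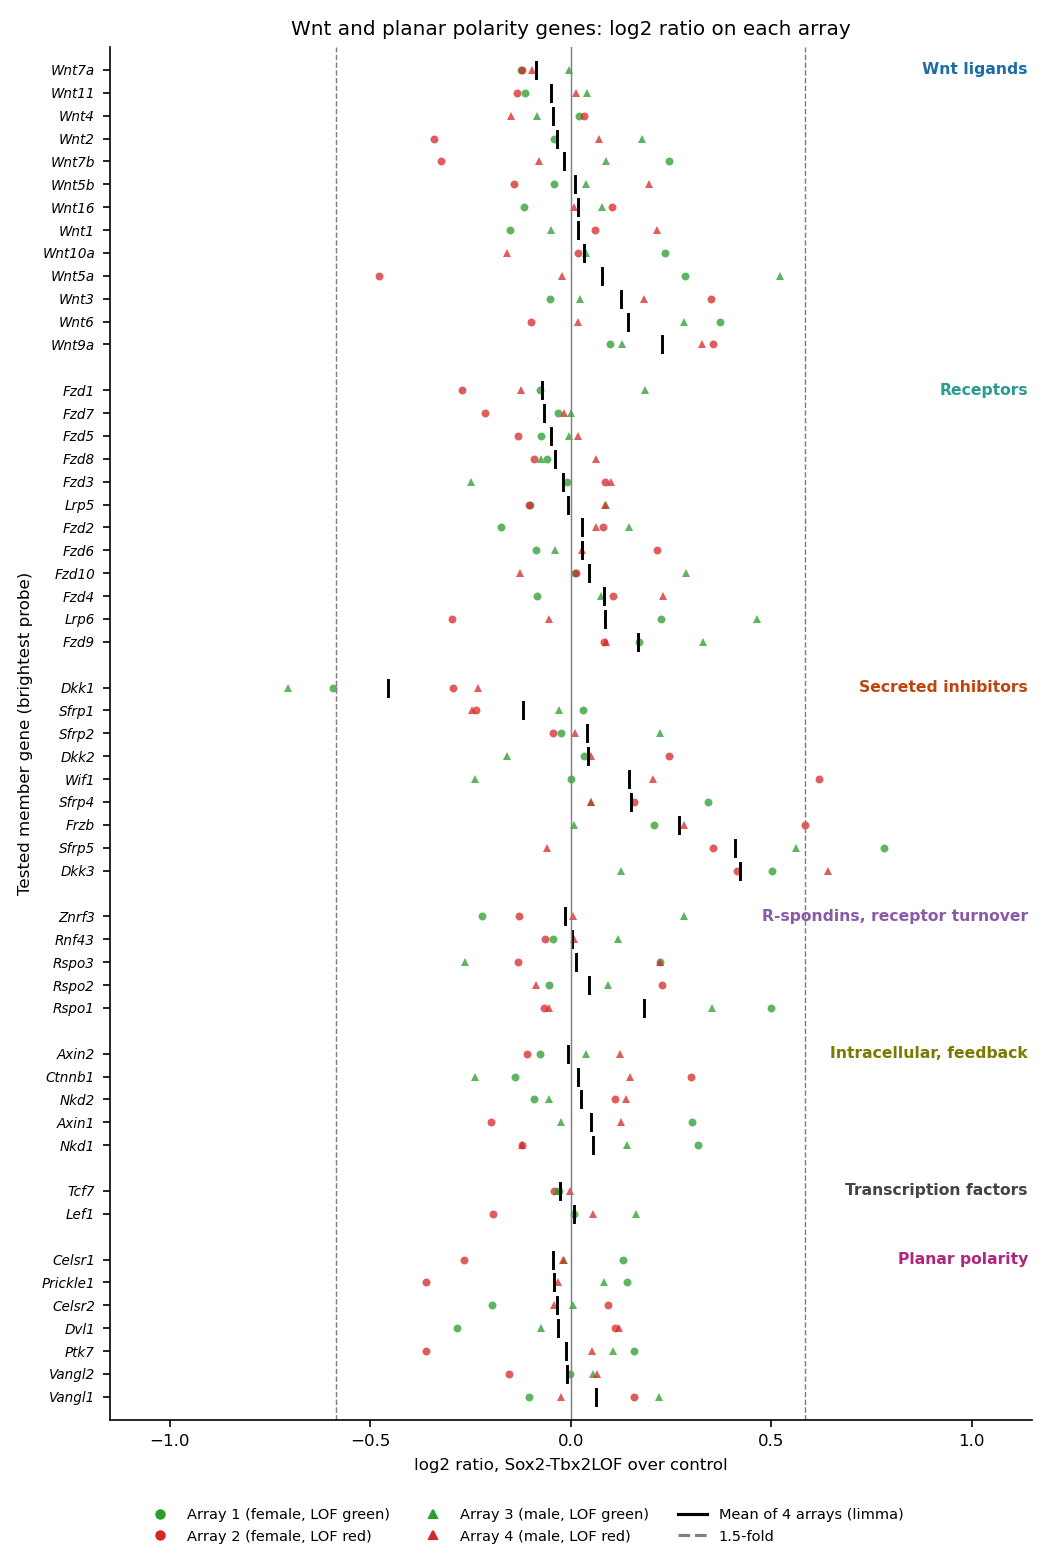
Log2 ratio of Sox2-Tbx2LOF over control on each of 4 arrays (points, coloured by the channel of the mutant RNA and shaped by sex) and their limma mean (black bars) for the 53 tested genes, grouped by role; dashed lines mark 1.5-fold. Most means lie close to 0, the secreted inhibitors span from -0.46 to 0.42, and the red circles of array 2 are the lowest of the 4 points for 25 genes.

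Further genes of the pathway, 79 in all, were taken from a list of ligand modifiers, receptors, cytoplasmic and nuclear components, targets and planar polarity effectors. Of these, 76 were tested, 38 with a ratio above and 38 below 0, and the estimates ran from -0.19 to 0.25. None passed an adjusted p of 0.05. An unadjusted p below it was found for 7 higher genes (9.21%, against 3.87% of all genes) and 4 lower ones (5.26%, against 4.01%). The 5 genes listed as targets were all below 0, as were 9667 of the 20043 tested genes, and their median log2 ratio was -0.11. Of the 5, 2 were lower at an unadjusted p under 0.05, against 4.01% of all genes. The groups did not overlap for 2 of the 5, against 2.82% of all genes. Ccnd1, which encodes cyclin D1, was at -0.16 (SE 0.05, adjusted p = 0.27). Sp5, a transcription factor gene induced by Wnt, was at -0.17 (SE 0.05, adjusted p = 0.38). Ccnd1 and Sp5 were each below 0 on 4 of 4 arrays, and 9.33% of all genes had the same sign on all 4. Axin2, the beta-catenin target described above and not in this list, was at -0.01 and below 0 on 2 of 4 arrays. Whether the target genes changed as a set was not tested.

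Fat4, an atypical cadherin of the Fat and Dachsous polarity system, had the highest ratio of the list, 0.25 (SE 0.05, adjusted p = 0.087), with values of 0.15, 0.37, 0.30 and 0.20 on the arrays. The mutant pools, at 11.71 to 11.80, were all above the control pools, at 11.39 to 11.64. The groups did not overlap for 5 of the 76 tested genes of the list, Fat4 among them, against 2.82% of all genes. Without array 4 the adjusted p of Fat4 was 0.045. Intu, a planar polarity effector needed for cilium formation, followed at 0.22 (SE 0.06, adjusted p = 0.20), but its second brightest probe gave -0.01.

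Of the genes that act on ligands or on the Dkk co-receptor, Dkkl1 had a log2 ratio of -0.19 (SE 0.05, adjusted p = 0.16) and Kremen1, a receptor for Dkk1, one of -0.16 (SE 0.05, adjusted p = 0.28), both below 0 on 4 of 4 arrays. Draxin, an axon guidance protein that antagonises Wnt, was at 0.16 (SE 0.05, adjusted p = 0.27) and at 0.36 with the scanner software's ratio. Notum, an enzyme that removes the lipid from Wnt proteins, was at 0.14 (SE 0.05, adjusted p = 0.45). Lgr5, an R-spondin receptor of cochlear supporting cells, had log2 ratios of 0.31, -0.25, 0.08 and -0.16 and an estimate of -0.00 (95% interval -0.13 to 0.12).

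The ratios of the 53 genes were more alike between arrays with the same dye assignment than between arrays with swapped dyes. The same correlations over all genes were not computed. Across genes, which are not independent replicates, Pearson's r was 0.55 between arrays 1 and 3 and 0.51 between arrays 2 and 4, the pairs with the same dye for the mutant RNA, and between -0.13 and 0.14 for the pairs with swapped dyes. The dye coefficient was larger than the genotype coefficient for 36 of 53 genes (67.9%), close to the 68.2% of all genes. For 13 genes (24.5%) the ratio had one sign on both green arrays and the other on both red arrays, against 33.0% of all genes. The median absolute dye coefficient was 0.099 for the 53 genes and 0.071 for all genes. Each estimate averages both orientations, in which a dye effect of equal size cancels. Array 2 gave the lowest of the 4 ratios for 25 of 53 genes (47.2%), against 29.9% of all genes.

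**Figure D4:**
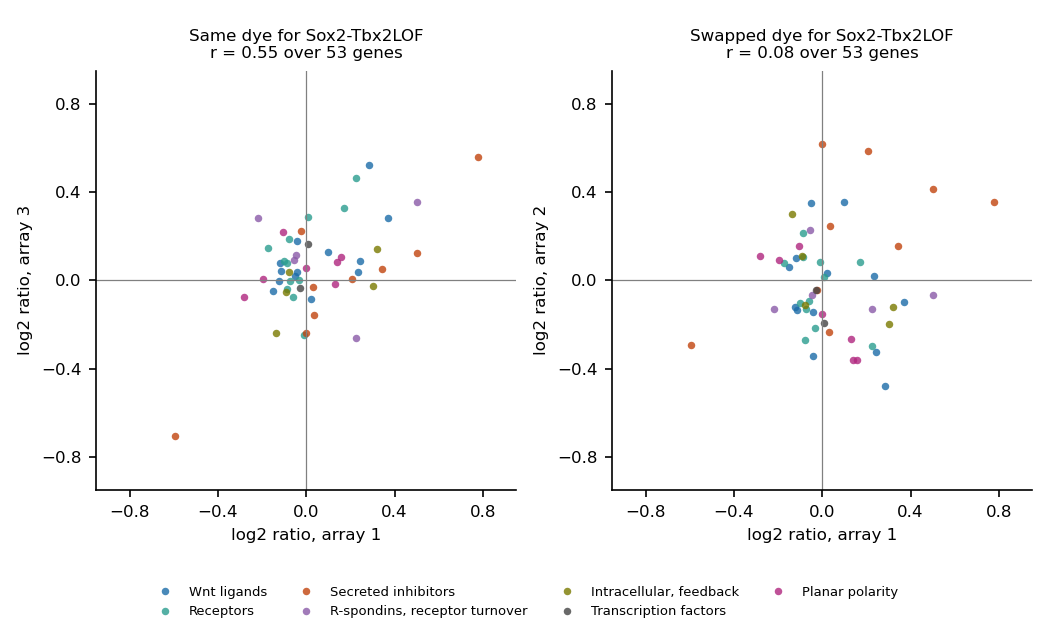
Log2 ratios of Sox2-Tbx2LOF over control of the 53 tested genes on array 1 (horizontal axes) against array 3, where the mutant RNA had the same dye (left), and against array 2, where the dyes were swapped (right), coloured by role. Pearson's r across genes is 0.55 on the left and 0.08 on the right, and Dkk1 stands alone at the lower left of both panels.

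Between female and male pools the genotype ratio differed with an adjusted p under 0.05 for none of the 53 genes and for 0 of 20043 genes (0%). At an unadjusted p under 0.05, 6 of 53 genes (11.3%) differed, against 1.97% of all genes. These were, named after their values were seen, Sfrp5, Wif1 and Frzb, with ratios higher in the females by 0.32, 0.33 and 0.25, and Wnt2, Wnt5a and Znrf3, with values for females minus males of -0.31, -0.35 and -0.32 (adjusted p = 1.00 for each). With 2 arrays per sex, a difference between sexes cannot be told apart from one between pools.

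Marker levels of other cell types varied between the pools. Of 9 mesenchymal markers, all well above background on every array, 8 had a ratio above 0, with a median of 0.07 and a highest value of 0.34 for Col1a1 (adjusted p = 0.061), and none had an adjusted p under 0.05. Their summed signal, on the log2 scale, lay between 18.23 and 18.34 in the mutant and between 18.06 and 18.28 in the control pools, with log2 ratios of 0.00, 0.28, 0.08 and 0.15 on arrays 1 to 4. The mean of these was 0.13 ± 0.12 (SD, n = 4). The summed signal of 3 markers of the greater epithelial ridge, the epithelium beside the inner hair cells, lay between 16.51 and 16.62 in the mutant and between 16.31 and 16.47 in the control pools, with no overlap and log2 ratios of 0.14, 0.31, 0.05 and 0.13 (mean 0.16 ± 0.11). Of these 3, all well above background on every array, Epyc was the brightest and so weighed most in the sum. Epyc was at 0.23 (adjusted p = 0.24), and its groups did not overlap, as for 2.82% of all genes. Otoa was at 0.10 (adjusted p = 0.79), with overlapping groups. Crabp1 was at -0.14 (adjusted p = 0.38), below 0 on 4 of 4 arrays. The summed signal of 5 melanocyte markers had log2 ratios of -0.41, -0.29, -0.71 and 0.63. Of these markers, Tyrp1 was not well above background, while Dct, Tyr, Pmel and Mlana were on every array. The part of these cells in the ratios of the secreted inhibitors was not tested.

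**Figure D5:**
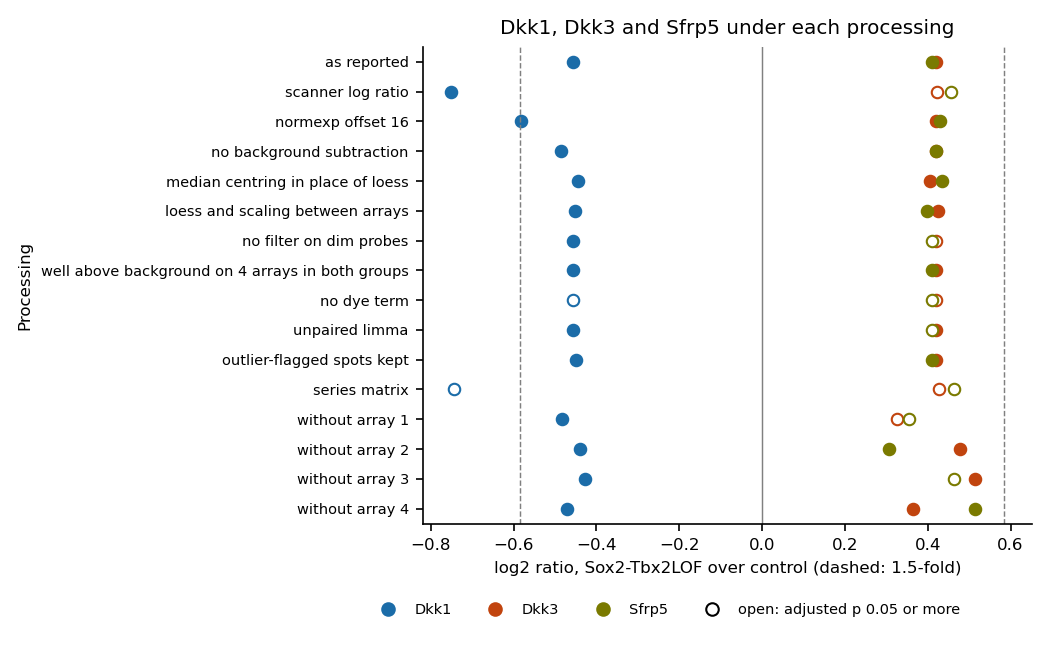
Log2 ratio of Sox2-Tbx2LOF over control (horizontal axis) of Dkk1, Dkk3 and Sfrp5 as reported and under 15 other ways of processing (vertical axis); filled points have an adjusted p under 0.05, open points do not, and dashed lines mark 1.5-fold. The direction of each gene is the same throughout, while Dkk1 ranges from -0.75 to -0.43, Dkk3 from 0.33 to 0.52 and Sfrp5 from 0.31 to 0.51.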

How the data were processed

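Total RNA of 4 Sox2-Tbx2LOF and 4 control pools was hybridised in pairs to 4 Agilent arrays. Per the labels, the authors processed the scans with Agilent Feature Extraction 10.7.3.1. The deposited scanner files give intensity per spot and channel and a log10 ratio, and the deposited value table a signed fold change, used as a score, whose normalization steps are not given in the sources used here. Its ratios correlated with the scanner ratios, taken as mutant over control, at r = 0.917 to 0.941, and its median was 1 on each array. The authors' p-values for each spot were not used.

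In R 4.3.3 with limma 3.58.1, intensities were background-corrected (normexp, offset 50), loess-normalised within arrays on the log2 scale and averaged over the spots of a probe, without flagged and control spots; channel levels were then scaled between arrays (Aquantile). Probes well above background in a share of over 0.5 of their spots on at least 3 of 4 arrays in either group were tested (28104 of 39429). The model held genotype and dye, and genes were represented by their brightest probe. Symbols came from RefSeq accessions for 28328 probes. The step was tested on simulated data. Marker sums added the linear levels of a list.

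The members and lists were chosen with earlier results of these data known. Genes were named at an unadjusted p under 0.05, as the highest and lowest of a role, or as genes known from cochlear polarity or Wnt work, with Lgr5 and up to 8 more pathway genes of the smallest p. Alternatives were other background corrections, normalisations, filters, models, probes, the deposited table, each array left out, and Significance Analysis of Microarrays (SAM), the methods' test.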

Additional observations from a re-analysis of the deposited data

Results flagged for a closer look

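Of the 53 tested genes, 1 (1.89%) had an array that stood apart from the other 3. Fzd7, which encodes a Frizzled receptor, had log2 ratios of Sox2-Tbx2LOF over control of -0.03, -0.21, -0.00 and -0.02 on arrays 1 to 4. The gap between array 2 and the nearest other array was 0.848 of the whole range, above Dixon's 95% limit for 4 values, which chance passes in a share of about 0.05 of such groups. The limma estimate for Fzd7 was -0.07 (SE 0.05, adjusted p = 1.00), and its second probe gave 0.01.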

How the results depend on the processing

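None of the 53 genes was called changed under 16 of 17 alternatives, SAM included. The exception was the scanner software's own log ratio, under which 1 gene, Dkk1, was called; it differs in background correction, offset and normalisation together, and the smaller offset alone gave 0. The count with an adjusted p under 0.05, 3 as reported, was 1 with the scanner ratio, 1 with no filter on dim probes, 0 with no dye term and 0 with the deposited value table, where 1 of 20043 genes passed in all; with 1 array left out it ran from 1 to 4. The unpaired fit, with no replicate block, left 2, and lost Sfrp5 (adjusted p = 0.39). The count at an unadjusted p under 0.05, 11 as reported, was 6 with no dye term and 5 in the unpaired fit, and 7 to 10 with 1 array left out. The cause was not tested beyond these settings. The median log2 ratio of the set ran from -0.01 without array 4 to 0.04 without array 2, so its sign rests on single arrays. Intu reversed with its second brightest probe, at -0.0078. Of the other named genes, directions were compared where the unadjusted p was under 0.05, and none reversed. Dkk1 missed the threshold in 3, Dkk3 in 6 and Sfrp5 in 8 of 16 alternatives, SAM among them. The slide as a block was not run, since all arrays share 1 slide. No scaling moved the median of all genes by over 0.1. The number of arrays limits the precision.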
